A study of Mus musculus with 8 samples.

Results

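The genes described here are 7 that encode surface proteins for the sensing and turnover of NAD, ATP and adenosine, namely *Art2b*, *Cd38*, *P2rx7*, *P2rx4*, *Entpd1*, *Nt5e* and *Adora2a*. They were taken by symbol from the 48321 genes of the count tables, and all 7 had a row, passed the filter on low counts and are among the 12597 genes tested. They were selected on their CPM values in these same libraries, compared between WT and KO and between day 0 and day 5, so the values of the 7 genes are given as a description, with no test.

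RNA was sequenced from CD8+ T cells, the cytotoxic lineage of T lymphocytes, taken from the spleen of C57BL/6 mice. The series describes floxed *Satb1* alleles (Satb1 F/F) with E8I-cre, a recombinase transgene active in mature CD8 lineage cells, and its title speaks of stimulation in vitro. The labels give WT or KO with no further detail of the alleles, and day 0 or day 5, with 2 libraries in each of the 4 groups. The alleles that the WT cells carried, the stimulus of the day 5 cells, the age of the mice and whether the 2 libraries of a group came from separate mice are not given in the sources used here. Day 5 differs from day 0 by time and by culture, which cannot be told apart, and p-values measure the spread between these libraries, which may be technical.

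Outside the cell, NAD and ATP act as signals that T cells read at the surface. ARTC2.2, the product of *Art2b*, is an enzyme held in the outer membrane by a lipid anchor that uses NAD to attach ADP-ribose to surface proteins. One of its targets is the P2X7 receptor, which opens in response and can lead to death of the cell. CD38 destroys NAD, while CD39 (*Entpd1*) strips ATP and ADP to AMP and CD73 (*Nt5e*) turns AMP into adenosine, which dampens T cells through the receptor made from *Adora2a*.

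Each library held between 4170126 and 11117971 counts assigned to a gene. Levels are in CPM, the count of a gene over that of the whole library scaled by a trimmed mean of M-values (TMM) factor, and 1 count stood for 0.0858 to 0.241 CPM. The CD8 T-cell markers summed to between 8458 and 12660 CPM, with *Cd4* at group means of 0.113 to 0.759 CPM. The B-cell list summed to between 1460 and 2445 CPM, almost all of it *Ighm*, with *Cd79b* at means of 120.3 and 152.6 CPM at day 0 and 67.7 and 81.4 CPM at day 5, WT first and without overlap, and *Ms4a1* at means of at most 0.226 CPM. In these bulk samples fewer cells of a type and less RNA per cell cannot be told apart.

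The targeted gene was examined first. *Satb1* had 97.8 and 91.6 CPM in the WT and 144.1 and 124.8 CPM in the KO libraries of day 0, and 96.5 and 115.9 CPM in the WT and 56.5 and 62.3 CPM in the KO libraries of day 5. Its log2 fold change was 0.51 (SE 0.15, FDR 0.125, quasi-likelihood test of edgeR, Benjamini-Hochberg adjusted) at day 0. At day 5 it was -0.84 (SE 0.15, FDR 0.0162, likewise by edgeR), past the threshold in 14 of 17 alternatives with a range of 0.000316 to 0.174. At day 0 *Satb1* was thus higher in both KO libraries than in both WT libraries, though not called, so its level there does not bear out the label. The groups are called KO-labelled below. Every direction between genotypes rests on that label. Reads over the floxed exons were not analysed here, since the tables are by gene.

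*Art2b* (ENSMUSG00000030651.5) lies on the minus strand at chr7:101576970-101585600 (GRCm38, GENCODE M21), and *Art2a-ps*, listed as a polymorphic pseudogene, lies 16104 bases away on the same strand at chr7:101552453-101560865. These neighbours are copies of each other, which bears on how 50-base reads are assigned. Their coding sequences align over 864 bases, of which 109 differ, so 87.4% are identical. Over the *Art2b* transcript, 140 of 2770 stretches of 50 bases (5.05%) also occur in the *Art2a-ps* transcript, and these make up 11.6% of the stretches of *Art2a-ps*. The count tables set apart every read without a unique alignment, so the values of both genes rest on the other positions.

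One stretch shows why some reads cannot be assigned. Coding bases 121 to 180, counted from 1 at the A of the start codon, do not differ between the genes (*Art2b* chr7:101580511-101580570, *Art2a-ps* chr7:101555150-101555209, minus strand, both from the GENCODE M21 transcripts):
Art2b: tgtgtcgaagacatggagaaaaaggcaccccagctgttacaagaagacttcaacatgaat
Art2a-ps: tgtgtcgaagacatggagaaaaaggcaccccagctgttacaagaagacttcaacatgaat

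Another stretch, coding bases 421 to 540, shows where the copies can be told apart and where the reading frame of *Art2a-ps* ends early (*Art2b* chr7:101580151-101580270, *Art2a-ps* chr7:101554790-101554909, minus strand). Capitals mark the 28 bases that differ:
Art2b: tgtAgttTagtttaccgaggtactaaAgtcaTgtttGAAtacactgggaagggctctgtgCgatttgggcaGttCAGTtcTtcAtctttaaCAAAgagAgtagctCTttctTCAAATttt
Art2a-ps: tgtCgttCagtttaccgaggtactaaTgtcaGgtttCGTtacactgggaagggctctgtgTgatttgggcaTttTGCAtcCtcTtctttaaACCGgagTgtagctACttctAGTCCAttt

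The difference C481T, with the base of *Art2b* first, makes codon 161 of *Art2a-ps* a stop codon, whereas *Art2b* has no stop codon before its end. The counts were read at the level of the gene and hold no value for that base.

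*Art2b* had its highest level in WT at day 0 and its lowest in the KO-labelled libraries at day 5. It had 169.4 and 175.5 CPM in the WT libraries of day 0 and 78.8 and 80.2 CPM in those labelled KO. At day 5 it had 5.29 and 4.58 CPM in WT and 1.29 and 1.14 CPM in the KO-labelled libraries. The 4 groups did not overlap, and within each day both KO-labelled libraries were below both WT libraries.

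At day 0 WT averaged 172.4 ± 4.29 CPM (SD, n = 2) and the KO-labelled libraries 79.5 ± 1.02 CPM, 2.17-fold lower, with a log2 fold change of -1.12 (SE 0.14). At day 5 WT averaged 4.94 ± 0.504 CPM and the KO-labelled libraries 1.21 ± 0.107 CPM, 4.05-fold lower, with a log2 fold change of -2.02 (SE 0.31). The day 5 values rest on few reads, 30 and 19 counts in WT against 7 and 6 in the KO-labelled libraries. The Poisson 95% intervals, which cover counting error only, were 3.57 to 7.55 and 2.76 to 7.15 CPM in WT and 0.518 to 2.65 and 0.417 to 2.47 CPM in the KO-labelled libraries. Between day 0 and day 5 the level was 34.5-fold lower in WT (log2 fold change -5.11, SE 0.19) and 64.4-fold lower in the KO-labelled libraries (-6.01, SE 0.23). The difference between these, -0.90 on the log2 scale with an SE of 0.35, was the amount by which the KO against WT difference at day 5 exceeded that at day 0. Leaving out each library in turn kept it between -1.02 and -0.78.

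*Art2a-ps* had far fewer reads. It had 33 and 22 counts in WT and 43 and 10 counts in the KO-labelled libraries at day 0, and 1 and 6 counts in WT and 0 and 0 in the KO-labelled libraries at day 5, which allows up to 3 counts in each. Its mean was 5.44 CPM in WT and 2.76 CPM in the KO-labelled libraries at day 0, with a log2 fold change of -0.92 (SE 0.57) that missed the threshold (FDR 0.544, quasi-likelihood test of edgeR, Benjamini-Hochberg adjusted). With culture it fell in WT (-2.85, SE 0.74, FDR 0.00765, likewise by edgeR), though the call was lost in 2 of 18 alternatives with a range of 6.23e-05 to 0.079. Those were the fits without replicate 1 of WT day 0 and without replicate 1 of WT day 5. In the KO-labelled libraries it was at least 4.93-fold lower at day 5 than at day 0, against 3 counts per library.

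**Figure D1:**
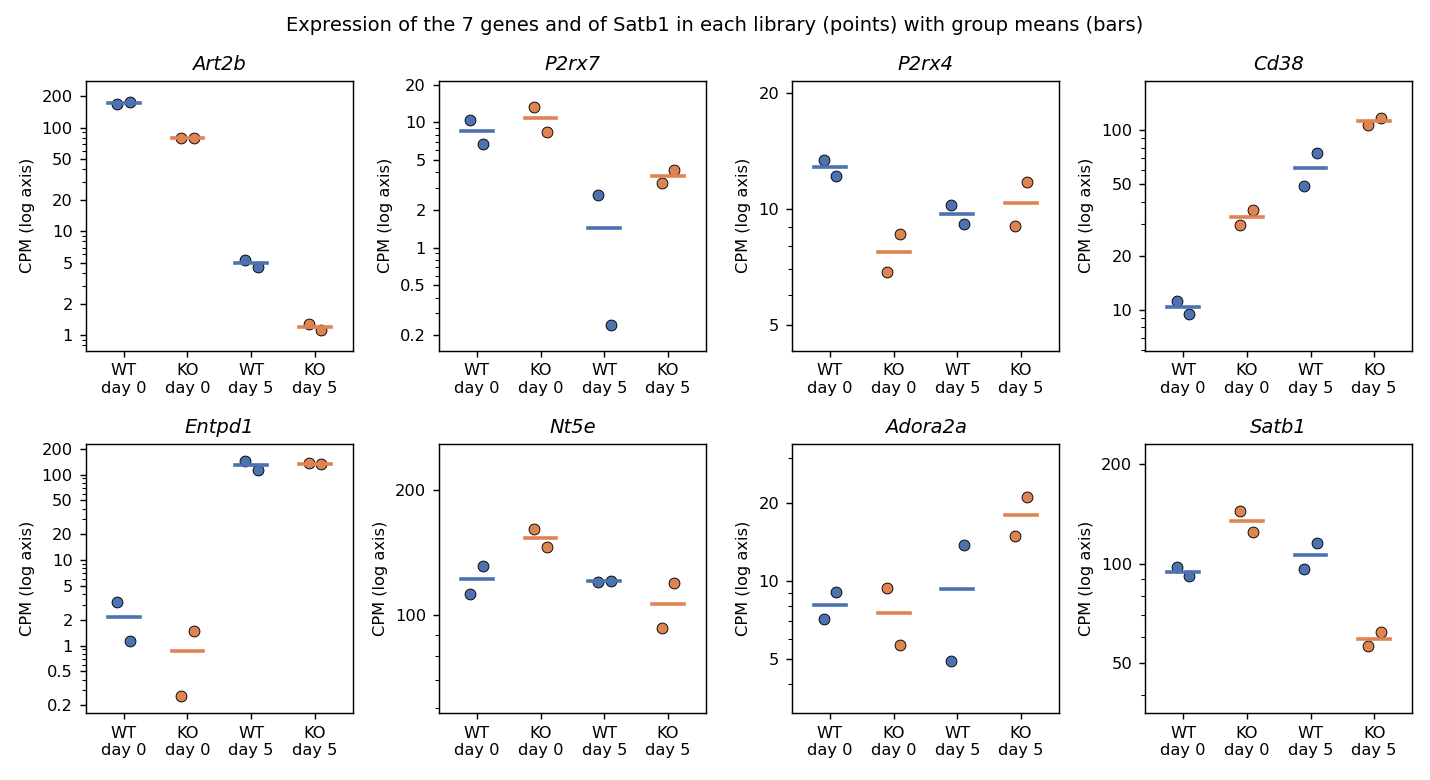
Level of the 7 genes and of *Satb1* in CPM (log axis, a scale of its own in each panel) in the 8 libraries. Points are libraries, bars are means of the 2 libraries of a group. *Art2b* stands at 169.4 and 175.5 CPM in WT at day 0 and at 1.29 and 1.14 CPM in the KO-labelled libraries at day 5. *Cd38* is lowest in WT at day 0 and highest in the KO-labelled libraries at day 5.

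*Cd38* encodes the enzyme that consumes NAD at the surface and is also a marker of activated lymphocytes. It lies at chr5:43868553-43912375 on the plus strand, 24566 bases from its paralogue *Bst1*. Its level was 11.3 and 9.50 CPM in WT and 29.7 and 36.2 CPM in the KO-labelled libraries at day 0. At day 5 it was 48.9 and 74.2 CPM in WT and 107.4 and 117.2 CPM in the KO-labelled libraries. The 4 groups did not overlap and followed the order opposite to that of *Art2b*, with WT at day 0 lowest and the KO-labelled libraries at day 5 highest.

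At day 0 the means of *Cd38* were 10.4 ± 1.25 CPM (SD, n = 2) in WT and 32.9 ± 4.58 CPM in the KO-labelled libraries, a log2 fold change of 1.65 (SE 0.24). At day 5 they were 61.5 ± 17.9 and 112.3 ± 6.92 CPM, a smaller log2 fold change of 0.88 (SE 0.20). With culture *Cd38* was 5.86-fold higher in WT (log2 fold change 2.55, SE 0.24) and 3.43-fold higher in the KO-labelled libraries (1.78, SE 0.20). The difference between the days in the KO against WT log2 fold change was -0.77 (SE 0.31), with a range of -1.04 to -0.47 when single libraries were left out.

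Markers of several cell types also differed between the genotypes, some higher and some lower in the KO-labelled libraries. The 4 regulatory T-cell markers summed to between 29.7 and 31.9 CPM in WT and between 157.5 and 168.7 CPM in the KO-labelled libraries at day 0. *Ikzf2* had means of 15.6 and 71.8 CPM, *Ctla4* 2.97 and 31.0 CPM, and *Foxp3*, 18.7% of whose exon length lies under genes of the other strand, 9.76 and 54.8 CPM. At day 5 the list summed to between 2068 and 2464 CPM in WT and between 1971 and 2331 CPM in the KO-labelled libraries, where *Il2ra*, which activated T cells also express, made up most of it. *Foxp3* then had 9.64 and 23.8 CPM in WT, below the 51.7 and 61.9 CPM of the KO-labelled libraries, while *Ikzf2* (means 21.0 and 21.3 CPM) overlapped and *Ctla4* (283.3 and 269.2 CPM) overlapped too. The 3 CD4 T-cell markers summed to between 1.36 and 3.58 CPM in WT and between 6.06 and 6.26 CPM in the KO-labelled libraries at day 0, where *Cd40lg* had means of 1.37 and 4.76 CPM, and to between 2.65 and 3.22 CPM in all libraries of day 5.

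The 5 gamma delta T-cell markers summed to between 62.2 and 94.1 CPM in WT and between 159.3 and 160.6 CPM in the KO-labelled libraries at day 0, and to between 321.2 and 346.9 and between 513.6 and 611.4 CPM at day 5, with *Sox13* at 0 counts in all libraries of day 5. Its members did not move together. *Tcrg-C2* had means of 3.10 and 22.6 CPM at day 0 and 166.4 and 329.5 CPM at day 5, WT first, and *Tcrg-C4* had 5.34 and 51.5 CPM and then 38.1 and 114.7 CPM. *Tcrg-C1* was higher in the KO-labelled libraries at day 0 (1.80 and 6.201 CPM) and overlapped at day 5 (93.2 and 92.9 CPM). *Trdc*, the constant gene of the delta chain, overlapped between genotypes at both days, with means of 67.6 and 79.1 CPM and then 36.3 and 25.4 CPM. The sum of the 8 myeloid markers overlapped at day 0, where *Itgam* was lower in the KO-labelled libraries (means 4.21 and 2.31 CPM) and *Adgre1* was lower too at no more than 0.226 CPM, and it came to between 34.9 and 41.7 CPM in WT and between 53.0 and 75.0 CPM in the KO-labelled libraries at day 5, where *Cd68* made up most of it (means 33.9 and 57.4 CPM), *Itgam* was then higher in the KO-labelled libraries (0.506 and 1.30 CPM), *Fcer1g* 0.0882 and 1.11 CPM, and *Lyz2*, *Cd14* and *Adgre1* at most 0.121 CPM. The sum of the natural killer cell list, most of it *Eomes*, which activated CD8 T cells also express, overlapped at day 0 and was lower in the KO-labelled libraries at day 5, with sums of 38.2 to 41.4 CPM against 49.2 to 54.3 CPM in WT. *Tyrobp* of that list was higher there, at 0.552 to 0.757 CPM against 0.176 to 0.482 CPM. The sum of the CD8 T-cell list was lower in the KO-labelled libraries at day 0 (11210 to 11450 CPM against 11820 to 12660 CPM) and overlapped at day 5, where *Cd8a* (733.8 to 832.5 CPM in WT against 1164 to 1216 CPM), *Cd3e* and *Cd3g* were higher and *Cd2* (2298 to 2785 CPM in WT against 2095 to 2234 CPM) and *Cd3d* lower without overlap. The sum of the B-cell list overlapped at day 0 and was higher in the KO-labelled libraries at day 5, with sums of 1588 to 1639 CPM against 1460 to 1469 CPM in WT. The part of these genes in the difference of *Cd38* was not tested.

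*P2rx7* encodes the ATP-gated channel that ARTC2.2 can open and lies at chr5:122643911-122691432 on the plus strand. Its reads were few. It had 10.4 and 6.78 CPM in WT and 13.4 and 8.44 CPM in the KO-labelled libraries at day 0. WT at day 5 had 2.65 and 0.241 CPM, the latter a single read, and 3.31 and 4.17 CPM in the KO-labelled libraries. The genotypes overlapped at day 0 and did not overlap at day 5, and within each genotype both libraries of day 5 were below both of day 0.

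The KO against WT log2 fold change of *P2rx7* was 0.36 (SE 0.45) at day 0 and 1.23 (SE 0.63) at day 5. With culture it was -2.44 (SE 0.58) in WT and -1.57 (SE 0.49) in the KO-labelled libraries. The values that use WT at day 5 rest on its libraries, which differed, with 15 counts and 1 count. Without replicate 2 of WT day 5 the difference at day 5 was 0.49 (SE 0.53) and that with culture in WT was -1.67 (SE 0.51), while without replicate 1 they were 3.85 and -5.03. Without replicate 1 of KO day 0 the difference at day 0 was -0.04.

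*P2rx4* encodes another ATP-gated channel of the P2X family and lies 16111 bases from *P2rx7*, at chr5:122707544-122729738 on the same strand. Its level was 13.4 and 12.2 CPM in WT and 6.86 and 8.63 CPM in the KO-labelled libraries at day 0, and 10.2 and 9.16 CPM in WT and 9.01 and 11.7 CPM in the KO-labelled libraries at day 5. The KO-labelled libraries were below WT at day 0 without overlap, and the genotypes overlapped at day 5. On the log2 scale the KO against WT difference was -0.75 (SE 0.27) at day 0 and 0.09 (SE 0.28) at day 5, and the difference with culture was -0.40 (SE 0.27) in WT and 0.44 (SE 0.27) in the KO-labelled libraries.

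*Entpd1* encodes CD39, the first of the enzymes that take ATP to adenosine, and lies at chr19:40612366-40741602 on the plus strand. It was near the counting floor at day 0, with 18 and 5 counts in WT (3.22 and 1.13 CPM) and 3 and 8 counts in the KO-labelled libraries (0.257 and 1.47 CPM). At day 5 it stood at 143.4 and 113.0 CPM in WT and at 135.2 and 134.2 CPM in the KO-labelled libraries. All 4 libraries of day 5 were far above all 4 of day 0, and the genotypes overlapped at both days.

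The log2 fold change of *Entpd1* with culture was 5.80 (SE 0.36) in WT and 7.63 (SE 0.41) in the KO-labelled libraries. Leaving out single libraries moved these between 5.32 and 6.81 and between 6.51 and 8.92. Between genotypes it was -1.75 (SE 0.66) at day 0, with a range of -3.02 to -0.63 when single libraries were left out, and 0.07 (SE 0.24) at day 5. The day 0 value moved the most without replicate 2 of KO day 0 (-3.02), without replicate 1 of KO day 0 (-0.63) and without replicate 1 of WT day 0 (-0.76).

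*Nt5e* encodes CD73, which makes adenosine from AMP, and lies at chr9:88327197-88372092 on the plus strand. It was the steadiest of the 7 genes, between 93.3 and 160.9 CPM in the 8 libraries. It had 112.3 and 131.6 CPM in WT and 160.9 and 146.1 CPM in the KO-labelled libraries at day 0, and 120.3 and 121.0 CPM in WT and 93.3 and 119.7 CPM in the KO-labelled libraries at day 5. The KO-labelled libraries were above WT at day 0 and below WT at day 5, in both cases without overlap, although the nearest libraries of day 5 were 119.7 and 120.3 CPM.

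The KO against WT log2 fold change of *Nt5e* was 0.34 (SE 0.15) at day 0 and -0.18 (SE 0.15) at day 5. With culture it was -0.02 (SE 0.15) in WT, where the libraries overlapped and the sign turned in 7 of 18 alternatives, over a range of -0.15 to 0.11. In the KO-labelled libraries it was -0.53 (SE 0.15), 1.44-fold lower. The contrast with *Entpd1* is one of level over time, since the first enzyme of the chain was more than 5 on the log2 scale higher at day 5 and the second differed by at most 0.53.

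*Adora2a* encodes an adenosine receptor that raises cyclic AMP in T cells, and lies at chr10:75316877-75334784 on the plus strand. It had 7.16 and 9.05 CPM in WT and 9.44 and 5.69 CPM in the KO-labelled libraries at day 0. WT at day 5 had 4.94 and 13.7 CPM and the KO-labelled libraries had 14.9 and 21.2 CPM. The genotypes overlapped at day 0. At day 5 the KO-labelled libraries were above both WT libraries, the higher of which was close to the lower KO-labelled library.

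On the log2 scale the KO against WT difference of *Adora2a* was -0.05 (SE 0.43) at day 0 and 0.99 (SE 0.41) at day 5. The day 0 value changed sign in 6 alternatives. The day 5 value depended on the WT libraries of that day, at 0.40 without replicate 1 and 1.86 without replicate 2, and on replicate 2 of KO day 5, without which it was 0.71. With culture the difference was 0.17 (SE 0.44) in WT, with a range of -0.67 to 0.79 when single libraries were left out, and 1.21 (SE 0.40) in the KO-labelled libraries.

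**Figure D2:**
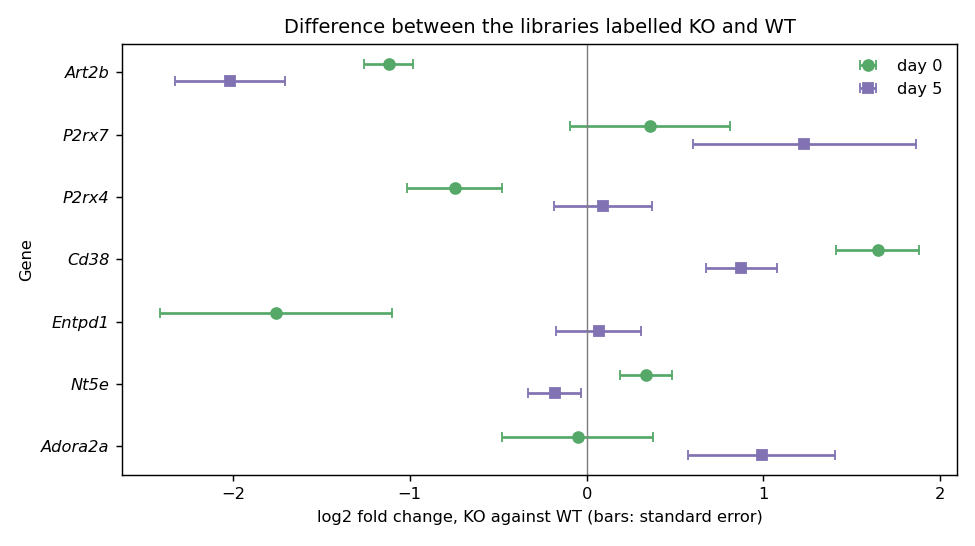
Log2 fold change of the 7 genes between the KO-labelled libraries and WT (horizontal axis) at day 0 (circles) and day 5 (squares), with bars of 1 standard error from the fit over all 8 libraries. *Art2b* lies below 0 and *Cd38* above 0 at both days, while *P2rx4*, *Entpd1*, *Nt5e* and *Adora2a* have fitted values on different sides of 0 at the 2 days, at least 1 of them within 2 standard errors of 0 for each gene.

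Side by side, both NAD enzymes differed between genotypes in opposite directions at each day. At day 0 the genotypes did not overlap in 4 of the 7 genes, *Cd38* and *Nt5e* being above WT and *Art2b* and *P2rx4* below, where 43.4% of all genes tested had no overlap in either direction. At day 5 they did not overlap in 5, *Cd38*, *P2rx7* and *Adora2a* being above and *Art2b* and *Nt5e* below, beside 45.6% of all genes. The median log2 fold change of the 7 was -0.05 at day 0 and 0.09 at day 5, and that of all genes was -0.002 and 0.000. As the genes were chosen with these contrasts in view, nothing is read from the counts.

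**Figure D3:**
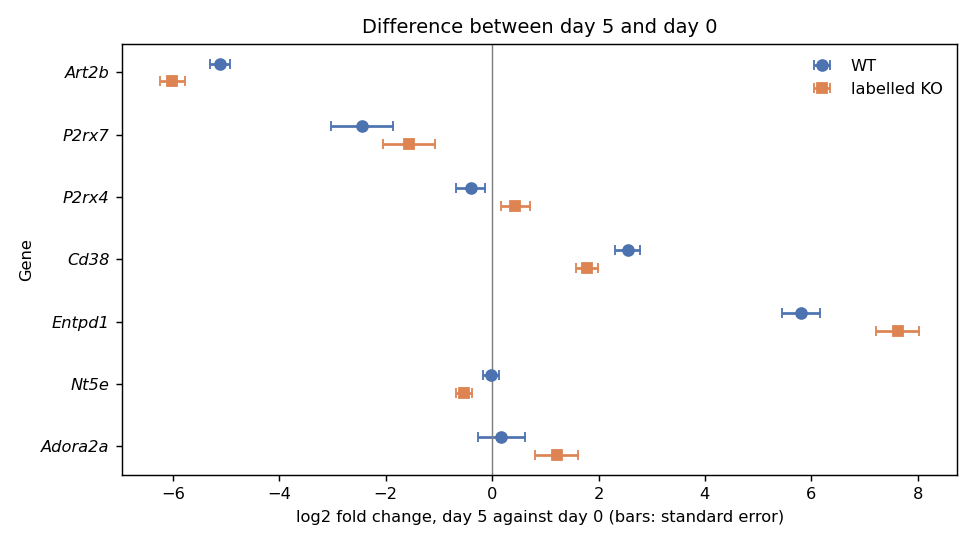
Log2 fold change of the 7 genes between day 5 and day 0 (horizontal axis) in WT (circles) and in the KO-labelled libraries (squares), with bars of 1 standard error. *Entpd1* is farthest to the right, at 5.80 and 7.63, and *Art2b* farthest to the left, at -5.11 and -6.01.

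With culture, 5 of the 7 genes did not overlap between the days in WT, *Cd38* and *Entpd1* being higher and *Art2b*, *P2rx7* and *P2rx4* lower, and all 7 did not in the KO-labelled libraries, where *Adora2a* and *P2rx4* were higher too and *Nt5e* lower. The shares of all genes tested without overlap were 73.7% and 77.9%, and nothing is read from the counts of the 7 here either. The medians of the 7 were -0.02 and 0.44, against -0.04 and -0.05 for all genes. Scaling by library totals moved the median of all genes to -0.17 in WT and -0.23 in the KO-labelled libraries, and small differences with culture are relative to that shift.

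Scaled by exon length, the order of the genes turned over between the days. The length is that of the merged exons of all annotated transcripts of a gene. Which transcripts these cells express was not determined, so the places of genes relative to each other rest on that length. In WT at day 0 *Art2b* led with a mean level of 61.0 CPM per kb, followed by *Nt5e* (14.2 CPM per kb). *Cd38* and *Adora2a* (2.67 and 2.65 CPM per kb) overlapped, *P2rx4* and *P2rx7* (1.82 and 1.44 CPM per kb) overlapped, and *Entpd1* was last at 0.390 CPM per kb. In the KO-labelled libraries at day 0 *Art2b* (28.1 CPM per kb) again led, then *Nt5e* (17.9), *Cd38* (8.46), *Adora2a* (2.47), *P2rx7* (1.83), *P2rx4* (1.10) and *Entpd1* (0.155), with overlap between *Adora2a* and *P2rx7*.

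At day 5 the lead passed to the enzymes that break down ATP and NAD. In WT *Entpd1* led at 23.0 CPM per kb, above *Cd38* (15.8) and *Nt5e* (14.02), which overlapped, then *Adora2a* (3.05) and *Art2b* (1.75), which overlapped, *P2rx4* (1.38) and *P2rx7* (0.242). In the KO-labelled libraries the order was *Cd38* (28.9 CPM per kb), *Entpd1* (24.1), *Nt5e* (12.4), *Adora2a* (5.90), *P2rx4* (1.48), *P2rx7* (0.626) and *Art2b* (0.429), and no neighbours overlapped. *Art2b* had gone from the first place to the last.

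**Figure D4:**
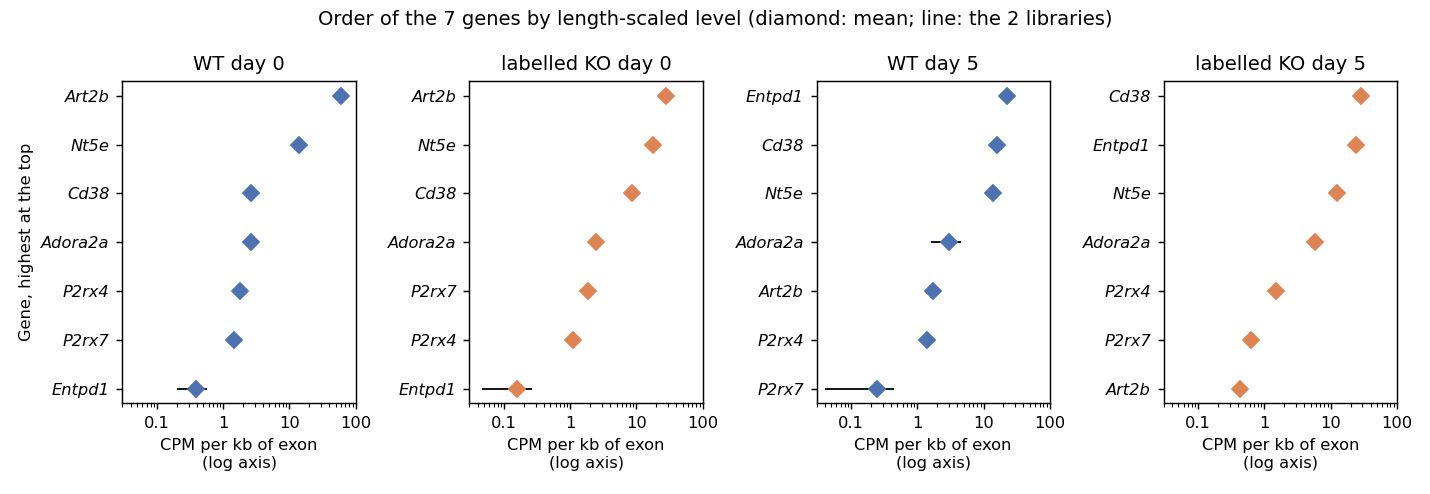
Mean level of the 7 genes in CPM per kb of exon (diamonds, log axis) in each group, ordered from the highest at the top, with a line between the 2 libraries of the group. *Art2b* is first in both groups of day 0, and *Entpd1* moves from last to first in WT and from last to next below *Cd38* in the KO-labelled libraries.

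The genes whose level followed *Art2b* most closely were named by the highest Pearson correlation of log2 CPM over the 8 libraries, as a description in which the points share the 4 groups. Only tested genes with at least 10 CPM in the highest library were ranked, and symbols of the Gm, Rik, LOC, BC, AC, AI, AW and AU kinds were left out. The closest to *Art2b* were *Dapl1* (0.995), *Siah1a* (0.993), *Cdk11b* (0.992), *Uros* (0.991) and *Ski* (0.990). *Dapl1* had group means of 814.5 and 467.1 CPM at day 0 and 114.6 and 47.4 CPM at day 5, WT first, so that it too was lower in the KO-labelled libraries and lower at day 5. *Siah1a* went through 34.8, 18.2, 4.74 and 2.70 CPM in the same order. The correlation does not measure the size of a change. *Cdk11b* went through 116.6, 97.3, 53.7 and 46.3 CPM, *Uros* 41.8, 36.5, 11.2 and 6.80 CPM and *Ski* 32.7, 23.1, 8.48 and 6.90 CPM. For *Cd38* the closest was *Prkra* (0.997, with 2.56, 7.93, 16.6 and 24.9 CPM), and for *Entpd1* it was *Rad51ap1* (0.996, with 7.25, 5.82, 191.9 and 181.9 CPM). For the genes of lower or steadier level the closest were *Zfp418* for *P2rx7* (0.979), *Slc35b4* for *P2rx4* (0.933), *Zfp763* for *Nt5e* (0.948) and *Gdf11* for *Adora2a* (0.925).

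The rest of the pathway was read from lists of 83 genes in 6 groups, of which 78 were in the tables and 48 were tested. The lists were chosen with earlier results of these data known. The shares of all genes are therefore given for scale, and nothing is read from how the lists compare with them. Between genotypes few of the 48 were called, and with 2 libraries in a group a gene that was not called may still differ. At day 0, 2 of the 48 were called, both higher in the KO-labelled libraries, beside 1.8% of all genes tested. At day 5 edgeR called 0 of the 48, with 9 at an unadjusted p under 0.05, and DESeq2 called 1, *Slc17a9*, beside 1.63% of all genes by edgeR. The medians of the 48 were -0.10 and 0.05 on the log2 scale.

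By the interaction term (FDR under 0.05 in edgeR), the difference between the genotypes itself differed between the days for 2 of the 48, *Adk* and *P2ry10*. Of all genes tested 0.159% were called. The calls of *Adk* and *P2ry10* were lost without either library of WT day 0 or of KO day 5. In those fits the log2 difference of differences was -1.64 to -1.41 for *Adk* and -1.57 to -1.35 for *P2ry10*.

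The genes called at day 0 were a receptor and an adenosine enzyme. *P2ry10*, a receptor of the P2Y family that responds to lysophosphatidylserine, had 76.2 and 78.9 CPM in WT and 235.3 and 204.6 CPM in the KO-labelled libraries at day 0, 1.51 higher on the log2 scale (SE 0.15, FDR 0.000233, quasi-likelihood test of edgeR, Benjamini-Hochberg adjusted). *Adk*, the kinase that turns adenosine back into AMP inside the cell, had 131.8 and 116.9 CPM in WT and 291.8 and 284.6 CPM in the KO-labelled libraries, a log2 fold change of 1.21 (SE 0.14, FDR 0.000853, likewise by edgeR). Both kept their calls in 17 of 17 alternatives, with ranges of 5.39e-16 to 0.0196 for *P2ry10* and 3.35e-11 to 0.0427 for *Adk*. At day 5 the genotypes were level for *P2ry10*, with 113.6 and 90.4 CPM in WT and 113.9 and 97.5 CPM in the KO-labelled libraries, and *Adk* had 144.3 and 116.4 CPM in WT and 113.7 and 97.1 CPM in the KO-labelled libraries, a difference that was not called (FDR 0.369, edgeR).

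More of the pathway genes were called with culture than between genotypes. In WT 23 of the 48 were called, 10 higher and 13 lower (47.9%, beside 48.3% of all genes), and in the KO-labelled libraries 29 were called, 14 higher and 15 lower (60.4%, beside 50.2%). Their medians were -0.12 and -0.005 on the log2 scale, against -0.04 and -0.05 for all genes. With a length and GC offset 9 rose and 18 fell in WT, and 12 rose and 18 fell in the KO-labelled libraries.

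Of the 14 tested genes of NAD supply and ADP-ribosylation, 2 rose and 3 fell in WT and 4 rose and 3 fell in the KO-labelled libraries. Among the latter the call of *Nadk* held in 11 of 18 alternatives (FDR 0.0339, up to 0.318, edgeR) and that of *Adprh* in 15 of 18 (FDR 0.00686, up to 0.411, edgeR). Both were lost with the length and GC offset and without replicate 2 of KO day 5, *Adprh* also without replicate 1 of KO day 0, and *Nadk* also without replicate 2 of KO day 0 or replicate 1 of KO day 5, under library totals, with no filter and by DESeq2. *Nampt*, the rate-limiting enzyme of NAD salvage, rose from 23.5 ± 5.72 CPM (SD, n = 2) to 230.4 ± 53.2 CPM in WT and from 21.5 ± 4.94 to 199.8 ± 4.62 CPM in the KO-labelled libraries. The log2 fold changes were 3.30 (SE 0.22, FDR 1.21e-07) and 3.19 (SE 0.22, FDR 1.1e-07, quasi-likelihood test of edgeR, Benjamini-Hochberg adjusted). *Qprt*, an enzyme of NAD synthesis from tryptophan, fell in WT from 12.1 ± 0.446 to 2.15 ± 1.05 CPM (-2.53, SE 0.41, FDR 0.000245, likewise by edgeR). In the KO-labelled libraries it had means of 5.87 and 3.27 CPM and was not called (FDR 0.0768, edgeR). *Art4*, another member of the ADP-ribosyltransferase family, fell from 99.3 to 29.1 CPM in WT and from 93.6 to 26.6 CPM in the KO-labelled libraries. *Bst1*, the neighbour of *Cd38*, had at most 3 counts in each library of day 0 and 11 to 25 counts in those of day 5, at least 7.14-fold higher in WT and at least 6.22-fold higher in the KO-labelled libraries.

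Among the 4 other P2X and P2Y receptors tested, 3 were called in each genotype, although in the KO-labelled libraries the call of *P2ry12* held in 7 of 16 alternatives. *P2ry14*, a receptor for UDP sugars, rose from 0.716 and 1.58 CPM to 152.6 and 124.3 CPM in WT and from 0.600 and 4.22 CPM to 110.5 and 128.6 CPM in the KO-labelled libraries. Its log2 fold changes were 6.95 (SE 0.51, FDR 2.73e-07) and 5.97 (SE 0.44, FDR 2.77e-07, quasi-likelihood test of edgeR, Benjamini-Hochberg adjusted), on day 0 counts of 4 to 23. *P2ry10* rose in WT (0.40, SE 0.15, FDR 0.0488, with a range of 0.0127 to 0.468 over 18 alternatives, 9 of which called it, by edgeR or DESeq2) and fell in the KO-labelled libraries (-1.06, SE 0.15, FDR 8.53e-05, edgeR). The call in WT was lost without either library of WT day 0 or of KO day 5, without replicate 1 of WT day 5, when scaled by library totals, with no filter on low counts, with only the 4 libraries of the comparison and with the length and GC offset.

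Of the 6 tested channels and transporters of ATP release, 3 were called in WT and 4 in the KO-labelled libraries. *Slc17a9*, the transporter that fills vesicles with nucleotides, fell from 230.8 to 121.9 CPM in WT and from 260.0 to 168.1 CPM in the KO-labelled libraries. Of the volume-regulated anion channel subunits, *Lrrc8c* rose from 36.7 to 71.2 CPM in WT and from 34.6 to 69.2 CPM in the KO-labelled libraries, and *Lrrc8a* fell from 56.9 to 26.8 CPM and from 54.3 to 26.5 CPM. *Panx1*, the pannexin channel, was called in the KO-labelled libraries, from 9.91 to 18.0 CPM (FDR 0.0352, edgeR), in 14 of 18 alternatives with a range of 0.00369 to 0.223. It was not called without replicate 2 of KO day 0 or of KO day 5, under library totals, or with only the 4 libraries of the comparison.

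Of the 7 other ectonucleotidases tested, 3 fell in WT and 4 fell in the KO-labelled libraries, whereas *Entpd1* stood higher at day 5. *Entpd6*, a relative of CD39, fell from 45.6 to 15.8 CPM in WT and from 33.2 to 20.8 CPM in the KO-labelled libraries, *Enpp4* from 42.6 to 25.5 CPM and from 30.2 to 18.6 CPM, and *Acpp* from 18.4 to 8.19 CPM and from 25.7 to 8.96 CPM. In WT the call of *Enpp4* was lost without replicate 2 of WT day 0 or of WT day 5 (highest FDR 0.0857, edgeR), and that of *Acpp* without replicate 1 of WT day 0 or replicate 2 of WT day 5 (highest FDR 0.352, edgeR). In the KO-labelled libraries the calls of *Entpd6* and *Enpp4* were lost without replicate 1 of KO day 0 or without either library of KO day 5 (highest FDR 0.0793 and 0.113, edgeR), and that of *Enpp1* was lost without the same libraries, with no filter and by DESeq2 (highest FDR 0.154).

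Of the 10 tested genes of adenosine receptors, transport and turnover, 3 rose and 3 fell in WT, and 5 rose and 4 fell in the KO-labelled libraries. The call of *Slc29a2* in WT held in 14 of 17 alternatives (FDR 0.0134, up to 0.0821, edgeR), and was lost without replicate 2 of WT day 0 and without either library of WT day 5. *Ada*, which deaminates adenosine, rose from 25.6 ± 6.05 to 81.1 ± 11.5 CPM (SD, n = 2) in WT and from 26.3 ± 0.317 to 108.2 ± 4.98 CPM in the KO-labelled libraries. *Pnp*, which acts after it, rose from 48.7 to 93.7 CPM and from 48.3 to 100.6 CPM. Reads that *Pnp* may share with its paralogue *Pnp2* were not analysed here. The equilibrative transporter *Slc29a1* rose from 118.6 to 409.1 CPM and from 108.7 to 388.2 CPM, while *Slc29a3* fell from 23.2 to 6.75 CPM and from 21.2 to 9.44 CPM and the concentrative transporter *Slc28a2* from 175.7 to 105.1 CPM and from 154.1 to 107.5 CPM. The call of *Slc28a2* in the KO-labelled libraries was lost without either library of KO day 5 (highest FDR 0.0605, edgeR), and that of *Dpp4* there without replicate 1 of KO day 0 or replicate 2 of KO day 5 (highest FDR 0.052, edgeR). *Adk* was called in the KO-labelled libraries, where it fell from 288.2 to 105.4 CPM, and had 124.4 and 130.3 CPM in WT.

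Among the 7 tested genes for proteins that act after P2X7 opens, 3 were called in WT and 2 in the KO-labelled libraries, and *Casp1* rose and *Ano6* fell in both genotypes. *Casp1*, the inflammatory caspase, rose from 2.41 to 33.2 CPM in WT (log2 fold change 3.82, SE 0.36, FDR 2.68e-06) and from 1.78 to 25.9 CPM in the KO-labelled libraries (3.87, SE 0.35, FDR 1.68e-06, quasi-likelihood test of edgeR, Benjamini-Hochberg adjusted). *Ano6*, a scramblase of membrane lipids, fell from 74.3 to 30.5 CPM and from 89.7 to 42.3 CPM.

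**Figure D5:**
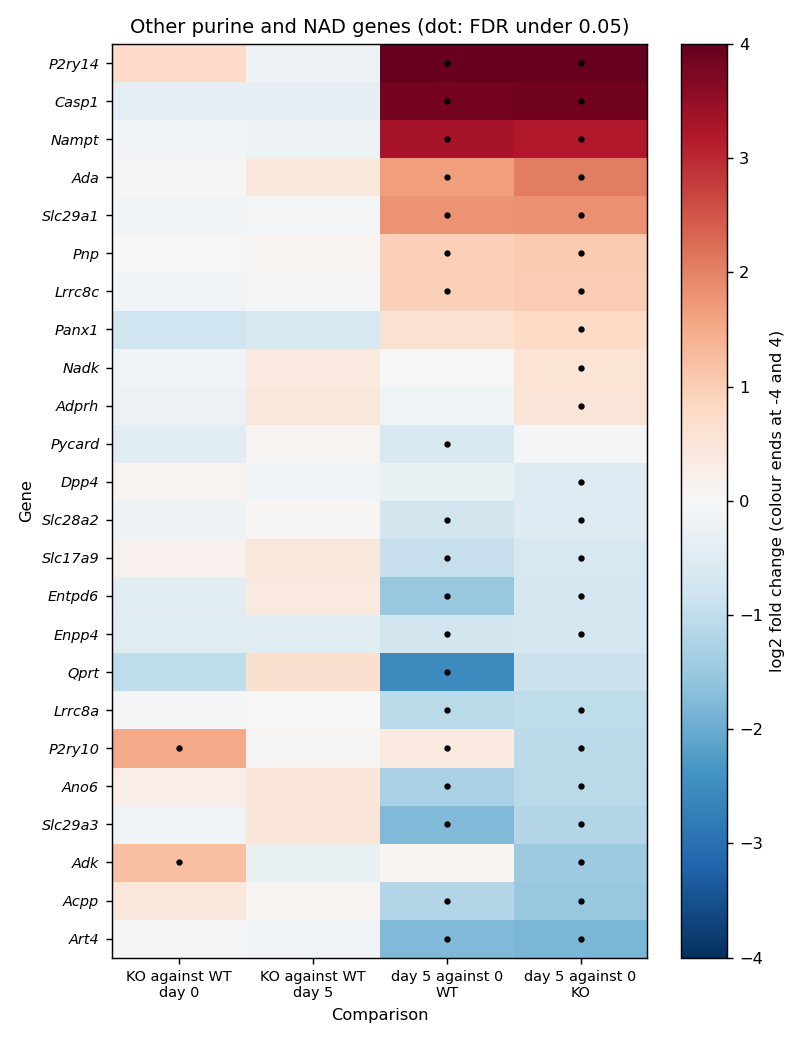
Log2 fold change (colour, with the scale ending at -4 and 4) of the other purine and NAD genes called in any of the 4 comparisons (columns) with at least 10 CPM in the highest group, 24 genes ordered by the difference with culture in the KO-labelled libraries. Dots mark an FDR under 0.05, and most of them lie in the columns for culture.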

How the data were processed

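CD8+ T cells of the spleen were profiled by RNA sequencing in 8 libraries, 2 for each of WT and KO at day 0 and day 5. The authors deposited a table of unnormalised counts by gene symbol with every library. Per the labels, total RNA of sorted cells was made into libraries with the NEBNext Ultra RNA kit and sequenced as 50-base reads, and the submitters' processing notes name HISAT2 2.1.0, HTSeq 0.11.1 and mm10. The annotation and the strand setting are not given in the sources used here, so reads from genes that overlap on opposite strands may not be told apart. Records that name no gene were left out of library sizes, and 21.2 to 24.5% of records were assigned to genes, 27.5 to 33.7% had no feature, 31.8 to 37.4% were not unique, 10.6 to 12.9% were not aligned and 0.466 to 0.571% were ambiguous.

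All 8 libraries entered 1 fit with edgeR 4.0.16 in R 4.3.3 (TMM factors, filterByExpr with a minimum count of 10, legacy quasi-likelihood test, Benjamini-Hochberg FDR threshold 0.05), tested on simulated data. The 12597 genes kept included all 7 described. The biological coefficient of variation was 14.95%, and replicate counts differed beyond sampling noise in every group (chi-square per degree of freedom 5.08 to 10.4). Intervals and floors (3 counts per library) cover counting error only. A gene of the pathway lists and a marker gene are not reported here and were left out of the lists. Members and pathway lists were chosen with earlier results of these data known. Named genes were all members, *Satb1*, marker genes, pathway genes called in a comparison (values for the 4 with the largest change at 10 CPM or more, the rest of the values being added after they were seen) and, for likeness, the 5 highest Pearson correlations for *Art2b* and the 3 highest for each other member, of which the first is printed. Annotation came from GENCODE M21 on GRCm38, with sequences compared in Biopython 1.88.

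Alternatives were DESeq2 size factors, library totals, no filter or at least 5 CPM in 2 libraries, the 4 libraries of a comparison alone, a replicate block, the test in its edgeR 4 form, DESeq2 1.42.0, an offset for exon length and GC content (loess span 0.3, known for 96.9% of genes), and each library left out. A block of the replicate number within genotype was added after seeing the data.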

Additional observations from a re-analysis of the deposited data

Results flagged for a closer look

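The KO against WT difference of 2 other pathway genes was not the same at day 5 as at day 0 by the interaction term (quasi-likelihood test of edgeR, Benjamini-Hochberg adjusted), where 0.159% of all genes tested were called. The lists that hold these genes were chosen with earlier results of these data known. For *Adk* the log2 difference of differences was -1.52 (SE 0.20, FDR 0.0113) and for *P2ry10* -1.46 (SE 0.21, FDR 0.0193). Both calls were lost without replicate 1 or replicate 2 of WT day 0 and without replicate 1 or replicate 2 of KO day 5. Without those libraries the value was -1.64 to -1.41 for *Adk* and -1.57 to -1.35 for *P2ry10*. The calls were also lost with the length and GC offset, where the values were -1.18 and -1.16 (FDR 0.0791 and 0.0964, edgeR). In the 17 alternatives the FDR was 8.12e-08 to 0.169 for *Adk* and 2.02e-06 to 0.225 for *P2ry10*.

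*Nt5e* drew notice because both KO-labelled libraries were above both WT libraries at day 0 and below both at day 5, with a difference between the days of -0.52 on the log2 scale (-0.515, SE 0.21). This difference was not tested, since the gene was chosen with these contrasts in view.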

How the results depend on the processing

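Depth limits *Art2b*, *P2rx7* and *Art2a-ps* at day 5 and *Entpd1* at day 0, each with few reads in at least 1 library. Of the values tried under alternatives, none reversed its direction among those called. The cause of the moves below was not tested. With no filter on low counts, genes called were 434 at day 0 (227 in the fit described), 418 at day 5 (205) and 154 for the interaction (20), and the *Art2b* log2 fold change at day 0 was -1.08. With the length and GC offset, 121 were called at day 5 and 12 for the interaction, and of the other pathway genes 0 for the interaction (2 in the fit described). With DESeq2, 350 were called at day 5 and 144 for the interaction, with 1 pathway gene at day 5, *Slc17a9* (0 in edgeR, with 9 at an unadjusted p under 0.05). The *Art2b* difference with culture was -5.25 in WT and -6.19 in the KO-labelled libraries under library totals and -5.41 and -6.31 with the offset.

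Leaving out 1 library gave 38 to 276 genes called at day 0, 32 to 249 at day 5 and 0 to 41 for the interaction, with 0 to 2 pathway genes there. At day 0 the count was 38 without replicate 1 and 49 without replicate 2 of WT day 0. At day 5 it was 121 and 119 without those, 84 without replicate 2 of WT day 5, and 54 and 32 without replicates 1 and 2 of KO day 5. For the interaction it was 0 without replicate 1 of WT day 0 in edgeR, where 1413 genes had an unadjusted p under 0.05 and DESeq2 on all libraries called 144, then 1 without replicate 2 of WT day 0, 41 without replicate 1 of WT day 5, and 3 and 4 without replicates 1 and 2 of KO day 5. *Art2b* stayed between -1.14 and -1.09 at day 0, -2.11 and -1.89 at day 5, -5.21 and -4.99 with culture in WT, -6.09 and -5.92 in the KO-labelled libraries, and -1.02 and -0.78 for the interaction.

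The labels do not say that a replicate number pairs libraries. Deviations of same-numbered libraries correlated at 0.118 between the WT days, 0.229 between the days of the KO-labelled libraries and -0.0742 to 0.00438 otherwise. With the replicate block 216, 215, 5999, 6291 and 29 genes were called in the order day 0, day 5, culture in WT, culture in the KO-labelled libraries and interaction. With the replicate block within genotype 55 were called for the interaction.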

Other observations

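A pair of other receptors was near the counting floor at day 0. *P2ry12*, an ADP receptor, had 0 and 0 counts in WT and 4 and 1 in the KO-labelled libraries at day 0, and 18 and 11 counts in WT and 5 and 11 in the KO-labelled libraries at day 5, at least 4.80-fold higher in WT against 3 counts per library (FDR 0.00124, edgeR). Its FDR in the KO-labelled libraries was 0.0349 in edgeR, and 7 of 16 alternatives called it, with a range of 0.0258 to 0.321, the omission of either library of KO day 0, WT day 5 or KO day 5 being among those that did not. *Adora3*, the A3 adenosine receptor, had 7 and 0 counts in WT and 0 and 0 in the KO-labelled libraries at day 0, and 23 and 9 counts in WT and 29 and 21 in the KO-labelled libraries at day 5, at least 11.5-fold higher in the KO-labelled libraries (FDR 0.000459, edgeR). In WT it was not called (FDR 0.0517, edgeR), and 9 of 17 alternatives called it, with a range of 0.00971 to 0.295.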
